A study of Mus musculus with 4 samples.

Results

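Mouse T cells that had been cultured with CX4945, an inhibitor of the protein kinase CK2, were compared with the culture that served as their own control. The libraries are titled aTh17plusCX4945 and aTh17withoutCX4945, and each arm holds 1 library. Every feature with at least 20 exon reads over the pair was kept, which gave 9358 of the 37583 features in the tables. A further 4630 features had 1 to 19 reads and 23595 had none. The 47 features with exactly 20 reads had log2 ratios from -1.80 to 1.71, and the 70 with 19 reads, just outside the limit, from -2.13 to 1.32.

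The cells of all 4 libraries in the series were naive CD4+ T cells, sorted from spleens of C57BL/6 mice. They were held for 24 h on plates coated with antibodies to CD3 and CD28, in 10 ng/ml IL-1β, 10 ng/ml IL-6 and 20 ng/ml IL-23, with 10 µg/ml anti-IL-4 and 10 µg/ml anti-IFN-γ, a culture called aTh17. The treated library received 1 µM CX4945 for 24 h and its control received no inhibitor. The other pair consists of cells given 1.5 µM DMAT, a different CK2 inhibitor, for 24 h and their own control. The labels name no vehicle for the controls, and nothing in them says that the libraries came from separate animals or cultures.

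CK2 is a serine/threonine kinase built from catalytic and regulatory subunits. It is active without an upstream signal and phosphorylates proteins of many pathways, among them NF-kB, AKT and STAT signalling. CX4945, also named silmitasertib, binds the ATP pocket of the catalytic subunit. Th17 cells arise from naive CD4+ T cells under IL-6 and STAT3, are reinforced by IL-1 and IL-23, and are known for secreting IL-17A, IL-17F and IL-22.

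The libraries held 2285545 exon reads (control for CX4945) and 2056635 (CX4945), and 81.7% and 81.4% of these reads were unique, that is, placed at a single position. A floor of 3 reads is 1.31 CPM (counts per 1000000 scaled reads) in the control and 1.47 CPM with CX4945. The T cell identity genes had a median log2 ratio of -0.01, all 15 were counted, and 5 of them had intervals above 1, among them Cd247, Zap70, Cd3e and Lck with log2 ratios from 0.18 to 0.33. Markers of other cells were low in both libraries. The summed B cell markers went from 42.2 to 42.0 CPM, nearly all of it Ighm, with Ms4a1 and Pax5 at 0. Myeloid markers summed to 47.5 and 52.8 CPM, from Cst3, Ctss and Cd68, with Lyz2, Csf1r and Itgam at 0, and CD8 and NK markers to 6.10 and 8.31 CPM, and all 6 erythroid markers were at 0. In bulk RNA, fewer cells of a type and less RNA per cell cannot be told apart.

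With CX4945, 79 genes were at least 2-fold higher (0.844% of the 9358) and 82 at least 2-fold lower (0.876%). With 1 library per arm no difference could be tested, so each ratio is given with a 95% counting interval, which covers the counting of reads and no variation between cultures. By that second measure, 683 genes (7.30%) had an interval wholly above 1 and 694 (7.42%) wholly below 1. These shares are the background for every list count of intervals given below. Where a gene's reads or CPM are given as a pair, the control comes first and CX4945 second. The 2-fold genes were mostly sparsely read. Of genes with 20 to 49 reads over the pair, 8.13% were 2-fold higher or lower, against 0.232% of the 861 genes with 1000 reads or more. The share with an interval off 1 ran the other way, from 8.46% to 30.9%.

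The same 2-fold measure between the control libraries found 94 genes higher (0.983% of 9564) and 124 lower (1.30%) in the control for CX4945 than in the control for DMAT. Those libraries belong to different experiments, and the difference uses the same control library as the CX4945 ratios, so it is given beside single genes and is not set against their ratios. In the DMAT pair 105 genes were 2-fold higher (1.09% of 9649) and 130 lower (1.35%). Among all 9358 genes counted for CX4945, 67 were 2-fold higher and 120 2-fold lower in the DMAT pair. Of the 79 genes higher with CX4945, 6 were 2-fold higher and 6 lower in the DMAT pair. Of the 82 lower with CX4945, 13 were 2-fold lower and 2 higher there. Dose, compound and experiment all differ between the pairs, so their values are only set side by side.

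**Figure D1:**
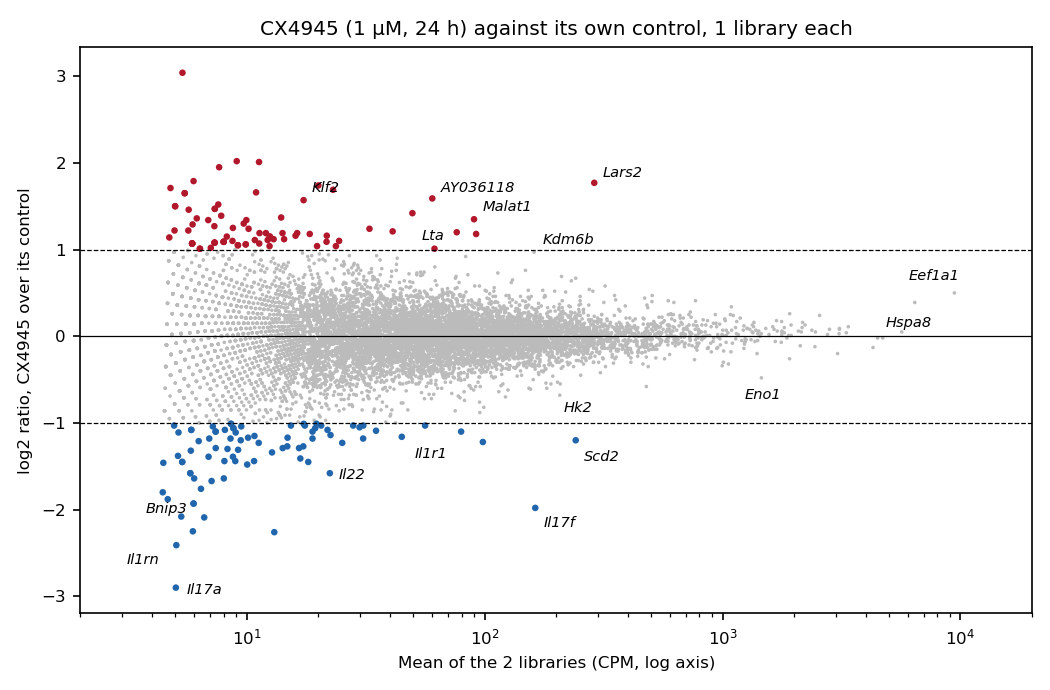
Each point is 1 of the 9358 genes: the x axis is the mean level of the CX4945 library and its control (CPM, log axis) and the y axis is the log2 ratio, CX4945 over control. Red marks the 79 genes at least 2-fold higher and blue the 82 at least 2-fold lower; most lie at the left, at low read counts, while Il17f, Scd2, Lars2 and Malat1 stand apart at higher levels.

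The clearest difference among well-read genes was in Il17f, which encodes a signature cytokine of Th17 cells. Exon reads numbered 600 without and 134 with the inhibitor, or 261 and 65.5 CPM, a ratio 3.99-fold lower (3.30 to 4.85). Its reads across an exon junction went from 40 to 5, a ratio of 0.140 (0.0432 to 0.355), and its other exon reads from 560 to 129, a ratio of 0.258 (0.212 to 0.314). Its neighbour Il17a, the founding member of the family, had 22 reads without and 1 with the inhibitor, 19.6-fold lower (3.17 to 809). The genes lie side by side on chromosome 1 of the mm9 build, Il17a from 20720986 to 20724577 and Il17f from 20767232 to 20774351. Per kilobase of exon, Il17f stood at 223 RPKM in the control and Il17a at 8.18 RPKM, so Il17f was by far the more abundant transcript at this time.

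The 250 bases before the annotated start of these neighbours are shown because both genes were among the 15 lowest. They are RefSeq sequence of the build GRCm38.p6, at chr1:20784271-20784520 on the minus strand (Il17f) and chr1:20730655-20730904 on the plus strand (Il17a). Capitals mark CACCC on either strand (GGGTG on the reverse), the core that Krüppel-like factors such as KLF2 recognise. It occurs in 52.0% of all 32851 windows of this length, so its presence here is a description only.
Il17f: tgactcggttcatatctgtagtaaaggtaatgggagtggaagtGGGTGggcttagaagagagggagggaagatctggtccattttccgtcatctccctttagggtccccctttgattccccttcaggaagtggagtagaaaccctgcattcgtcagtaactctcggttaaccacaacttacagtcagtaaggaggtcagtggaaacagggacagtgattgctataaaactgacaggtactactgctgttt
Il17a: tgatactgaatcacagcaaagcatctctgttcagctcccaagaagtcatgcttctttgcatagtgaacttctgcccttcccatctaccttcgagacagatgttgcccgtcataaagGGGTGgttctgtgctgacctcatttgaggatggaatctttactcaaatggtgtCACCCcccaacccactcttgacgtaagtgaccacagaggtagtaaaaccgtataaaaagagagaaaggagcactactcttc

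Of the 9 Th17 cytokine genes found in the tables, 4 were counted and 3 of those were 2-fold lower, with Il22 as the third. Il22, which acts on epithelia, went from 78 reads in the control to 22 with CX4945, 3.16-fold lower (1.95 to 5.33), with 42.0% of its reads unique. Il21, which supports Th17 cells through STAT3, was level, at 275 CPM without and 276 CPM with the inhibitor, a fold of 1.00 (0.892 to 1.12). The list's median log2 ratio was -1.78, against 0.00 over all genes counted. Il9 and Csf2 were at 0 reads without inhibitor and at 5 and 4 with it, too few to be counted.

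In the DMAT pair the same list had a median of -2.52. Il17f was at 380 CPM in that control and 51.7 CPM with DMAT, and Il22 was at 22.5 CPM and 0, where a floor of 3 reads in the DMAT library is 1.18 CPM. All 4 libraries are shown in the bar plots of single genes. For Il17f the inhibitor libraries both lie below both controls.

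**Figure D2:**
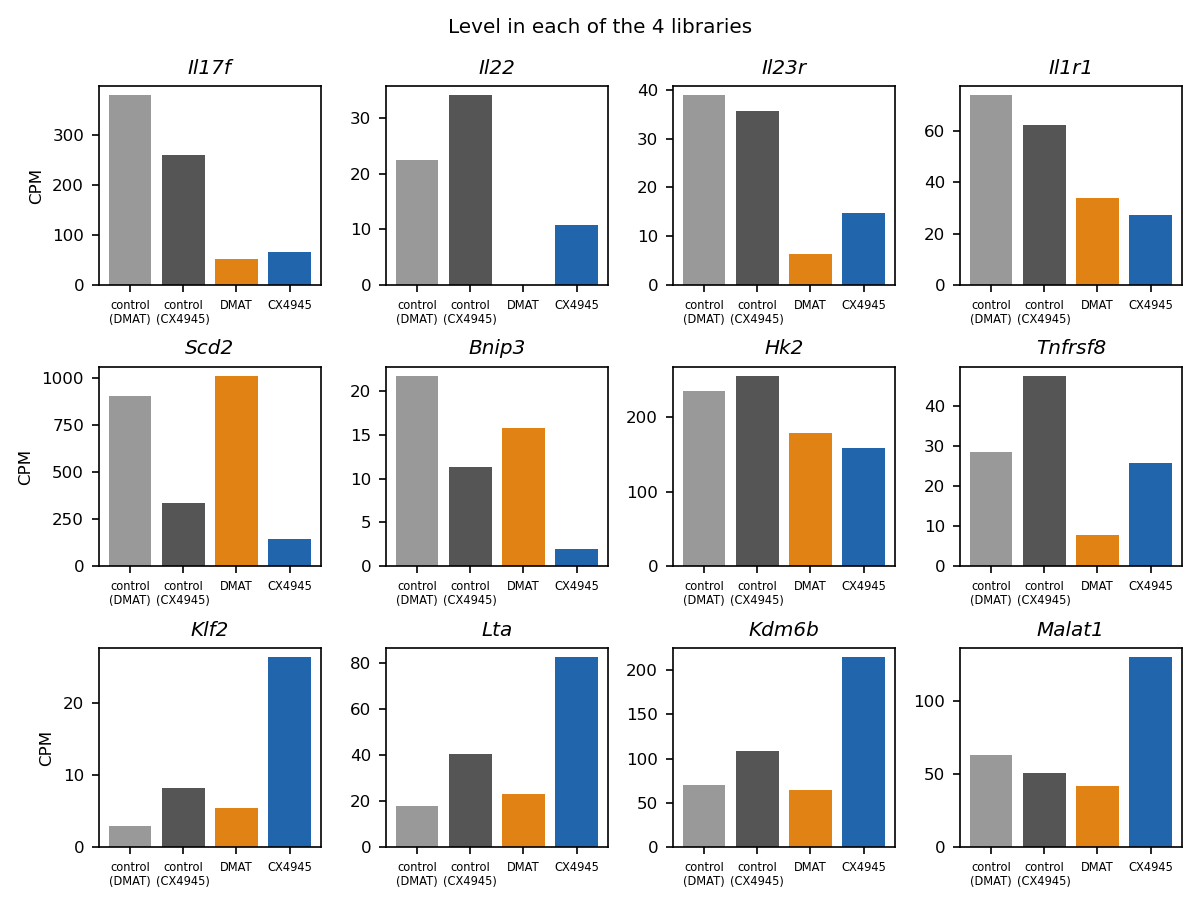
Bars give the level (CPM, linear axes from 0) of 12 genes in each of the 4 libraries: control for DMAT, control for CX4945, DMAT and CX4945, 1 library per bar and no error bar. Il17f, Il22, Il23r, Il1r1, Hk2 and Tnfrsf8 are lower in each inhibitor library than in its own control. Scd2, Bnip3, Klf2 and Lta differ widely between the controls, and Klf2, Lta, Kdm6b and Malat1 have their highest bar with CX4945.

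Among receptors for the polarising cytokines, both chains for IL-23 were lower, both chains for IL-6 higher, and the chains for IL-1 lay on opposite sides. Il23r, the specific chain of the IL-23 receptor, had 82 and 30 reads, 2.44-fold lower (1.59 to 3.83). Il1r1, the signalling receptor for IL-1, had 143 and 56 reads, 2.28-fold lower (1.66 to 3.16). Il12rb1, the chain that IL-12 and IL-23 receptors share, was 1.16-fold lower (1.03 to 1.31). Against these, Il6ra was 1.47-fold higher (1.10 to 1.98) and its partner Il6st, known as gp130, 1.26-fold higher (1.01 to 1.58). The log2 difference between the control libraries was small for Il23r (-0.10) and Il6st (-0.10) and larger for Il12rb1 (0.46). Against the control for DMAT, Il12rb1 was on the other side, with a log2 ratio of 0.25.

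The wider IL-1 and IL-18 family was split. Il1rn, the secreted antagonist of IL-1, had 21 reads without and 2 with the inhibitor, 9.36-fold lower (2.29 to 82.3), and Il18rap, the accessory chain of the IL-18 receptor, had 26 and 10, 2.32-fold lower (1.08 to 5.38). Il1rap, the accessory chain of the IL-1 receptor, was on the other side with 14 and 28 reads, 2.24-fold higher (1.14 to 4.61, 38.1% unique). Sigirr, an inhibitory member of the family, was 1.69-fold higher (1.29 to 2.21). Of 11 counted members, 3 were 2-fold lower and 1 was 2-fold higher. In the DMAT pair Il1rap and Sigirr had log2 ratios of -1.03 and -0.17, and Il1rn and Il18rap -4.14 and -2.07.

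Transcription factors of the Th17 programme had smaller ratios than its cytokines, and none of the 12 counted was 2-fold higher or lower. Rora, a nuclear receptor of the Th17 programme, was 1.47-fold lower (1.10 to 1.99). Batf, the AP-1 factor that opens Th17 loci together with IRF4, was 1.23-fold lower (1.08 to 1.41) and Fosl2 1.32-fold lower (1.07 to 1.63). Irf4 and Stat3 were level, at 1.00-fold (0.938 to 1.08) and 1.02-fold (0.910 to 1.14). Maf, a regulator of IL-10 and IL-21, was 1.59-fold higher (1.13 to 2.25) and Ikzf3 1.33-fold higher (1.07 to 1.66). Hif1a was 1.24-fold lower (1.12 to 1.38), but only 26.1% of its reads were unique, and with unique reads its log2 ratio was -0.05.

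Of the JAK-STAT genes, 3 of 19 had intervals above 1 and 4 below. Socs3, the feedback inhibitor of IL-6 signalling, went from 76.2 to 114 CPM, 1.50-fold higher (1.23 to 1.84), and was at 38.8 CPM in the control for DMAT. Stat4, which carries IL-12 and IL-23 signals, was 1.42-fold lower (1.07 to 1.89) and Stat5a had a log2 ratio of -0.35. Tyk2, a kinase of the IL-12 and IL-23 receptors, was 1.81-fold higher (1.21 to 2.74, 42.1% unique). Th1 genes as a list had a median of -0.46 over 7 counted members. Cxcr3, a Th1 chemokine receptor, was 1.88-fold lower (1.05 to 3.50), whereas Tbx21, the Th1 master regulator, had a log2 ratio of 0.13.

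Genes of naive and resting T cells leaned slightly higher. Of 20 counted, 13 had a log2 ratio above 0 and 7 below, with a median of 0.14. An interval lay above 1 for 5 of them and below 1 for 0, against 7.30% and 7.42% of all genes counted. Klf2, which maintains quiescence and drives the egress receptor S1pr1, had 19 and 54 reads, 3.19-fold higher (1.86 to 5.70). The chemokine receptor Ccr7 was 1.27-fold higher (1.10 to 1.47) and the transcription factor Tcf7 1.27-fold (1.16 to 1.40, 16.6% unique). The control for CX4945 was itself above the control for DMAT here (median log2 difference 0.22), with a log2 difference of 1.31 for Klf2. In the DMAT pair the list's median was 0.27.

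Of the ligands in the TNF family list, 3 had an interval above 1. Lta and Ltb, the lymphotoxin genes, and Tnf lie within 1 cluster on chromosome 17 of mm9, Ltb from 35331384 to 35333265, Tnf from 35336326 to 35338952 and Lta from 35340110 to 35342296. Lta had 93 and 169 reads, 2.04-fold higher (1.57 to 2.66). Ltb had 132 and 224, 1.90-fold higher (1.53 to 2.38), and Tnf 196 and 290, 1.66-fold higher (1.38 to 2.0). All 3 were also higher in the control for CX4945 than in that for DMAT, by log2 1.14, 1.36 and 0.58 in the same order. With DMAT over its control, Lta, Ltb and Tnf had log2 ratios of 0.35, 0.79 and -0.25.

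Of the TNF receptors, Tnfrsf1a, the death-domain receptor for TNF, was 1.57-fold higher (1.08 to 2.31). Tnfrsf8, which encodes the activation marker CD30, had 109 and 53 reads, 1.83-fold lower (1.31 to 2.60). The other 13 counted members of the 18 had intervals that held 1, and the family's median was 0.00. NF-kB genes divided as well, 4 above and 4 below 1 of 18. Tnfaip3, which encodes the feedback inhibitor A20, was 1.52-fold lower (1.31 to 1.76) and the subunit Rel 1.35-fold lower (1.08 to 1.67), while Nfkbid was 1.38-fold higher (1.17 to 1.62), with Tnf and Ltb counted here too.

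Of 14 immediate early genes of antigen receptor signalling counted, 5 had an interval above 1 and 1, Fosl2, below, and the median log2 ratio was 0.06. Nr4a3 was 1.68-fold higher (1.28 to 2.22), Egr1 1.42-fold (1.25 to 1.62), Nr4a1 1.39-fold (1.20 to 1.60) and Egr3 1.39-fold (1.01 to 1.93). These nuclear receptors and zinc finger factors are induced within hours of T cell receptor engagement. Dusp2 and Dusp5, phosphatases that switch off ERK, were 1.38-fold (1.22 to 1.56) and 1.50-fold (1.06 to 2.14) higher, and Dusp6 1.36-fold lower (1.03 to 1.81). Egr1, Egr3 and Nr4a1 were also higher in the control for CX4945 than in that for DMAT, by log2 0.95, 1.29 and 0.62. The list of T cell activation genes was evenly divided, with 5 intervals above 1 and 5 below among 20 and a median of -0.00. Above 1, beside Egr1, Egr3 and Nr4a1, were the early activation marker Cd69 and the factor Nfatc1, each 1.16-fold higher (1.01 to 1.33 and 1.01 to 1.32). Below 1 were Tnfrsf8, Myc, Cd44 at 1.46-fold (1.13 to 1.89), Tfrc, the transferrin receptor, at 1.27-fold (1.19 to 1.35), and Il2ra, which encodes CD25, at 1.12-fold (1.06 to 1.19). With total gene reads, which include introns, Cd44 had a log2 ratio of -0.08.

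Kdm6b, the demethylase that removes the repressive H3K27 methyl mark, lay just inside the 2-fold limit. It had 250 and 437 reads, 109 and 214 CPM, 1.96-fold higher (1.68 to 2.30). It was at 70.7 CPM in the control for DMAT and 64.3 CPM with DMAT, so the CX4945 library was the highest of the 4. Hdac7, a class II histone deacetylase of T cells, was 1.38-fold higher (1.25 to 1.53). Asf1a, a histone chaperone, was 2.11-fold lower (1.33 to 3.45, 41.8% unique), but had a log2 ratio of -0.36 against the control for DMAT. Hdac2 had a log2 ratio of -0.18. Of 23 chromatin regulators counted, 3 had an interval above 1 and 3 below.

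Of 8 checkpoint receptors counted, 1 had an interval above 1 and 2 below. Tigit had 37 and 13 reads, 2.54-fold lower (1.32 to 5.20), Btla was 1.17-fold lower (1.07 to 1.29), and Lag3 was 1.60-fold higher (1.28 to 2.02). Of 11 chemokine and homing genes, 3 had an interval above 1 and 2 below. The integrin chain gene Itga4 was 1.86-fold lower (1.23 to 2.87), but had a log2 ratio of -0.12 against the control for DMAT, and Itgal, the LFA-1 chain, was 1.24-fold higher (1.12 to 1.37). Tgfbr3, a co-receptor for TGF-β, had 55 and 95 reads, 1.94-fold higher (1.38 to 2.75). Of the granule, galectin and S100 genes, Serpinb9, an inhibitor of granzyme B, was 2.57-fold lower (1.45 to 4.76) and S100a6 2.14-fold lower (1.25 to 3.80), while Lgals3, which encodes galectin-3, had 11 and 24 reads, 2.45-fold higher (1.15 to 5.54). Marcks and Marcksl1, substrates of protein kinase C at the membrane, were 2.77-fold (1.27 to 6.68) and 1.51-fold (1.29 to 1.78) lower. Their log2 ratios against the control for DMAT were -1.66 and -0.13.

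**Figure D3:**
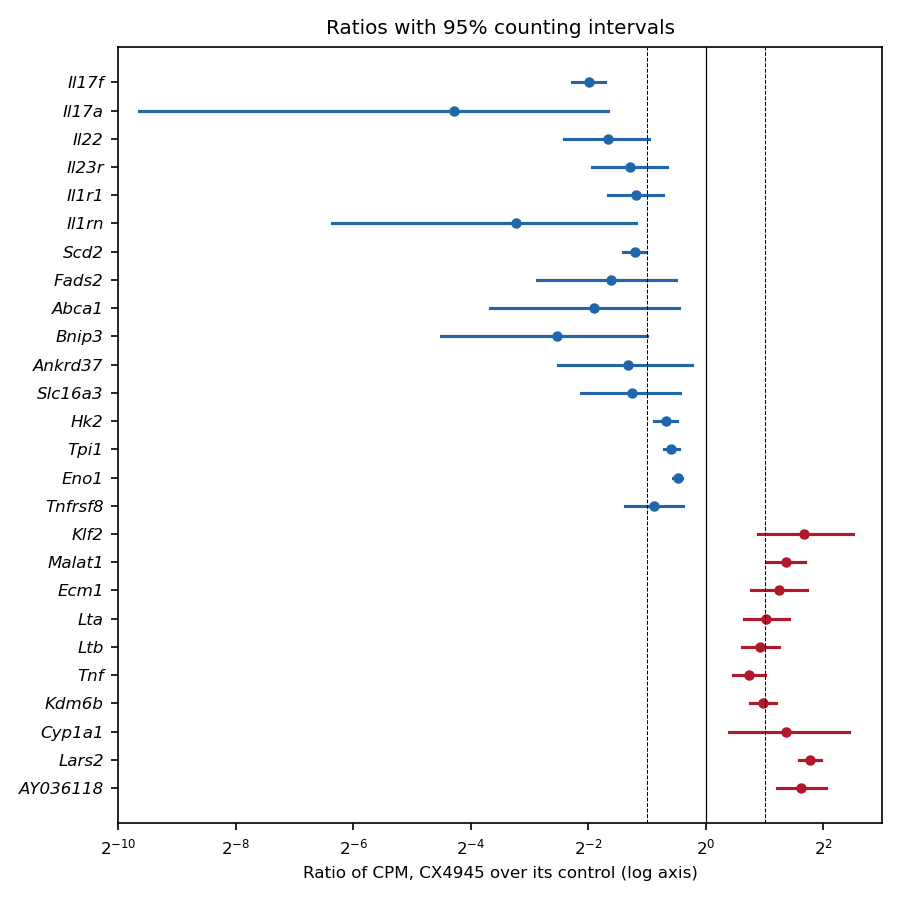
Points are the ratio of CPM, CX4945 over its control (log axis), for 26 named genes, and bars are 95% counting intervals; dashed lines mark 2-fold. Il17f and Lars2 have narrow bars beyond 2-fold, Il17a and Il1rn have wide ones and rest on 23 reads each, and Eno1 and Tpi1 are narrow but inside 2-fold.

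Targets of the aryl hydrocarbon receptor (AhR), a ligand-activated factor that Th17 cells express, were few in reads, and the 5 counted had a median log2 ratio of 0.99. Cyp1a1, its classical target, had 13 and 30 reads, 2.59-fold higher (1.31 to 5.41). Cyp1b1 had 6 and 14 reads, 2.62-fold higher (0.945 to 8.31), and Ahrr, the receptor's repressor, 8 and 16, 2.24-fold higher (0.906 to 6.06), with intervals that held 1. Tiparp, at 1.19-fold (0.901 to 1.56), and Nfe2l2, at 0.992 times the control (0.731 to 1.34), also had intervals that held 1. Ahr itself, which is not in the list, had 21 and 22 reads. For Cyp1a1, Ahrr and Tiparp the DMAT pair had log2 ratios of 0.82, -0.19 and -0.39.

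The sequence before the start of Cyp1a1 is shown because it is the AhR target with an interval off 1 (RefSeq, GRCm38.p6, chr9:57697363-57697612, plus strand). Capitals mark GCGTG, the core that AhR binds, searched on both strands, with 1 match. It occurs in 28.2% of all windows of this length.
Cyp1a1: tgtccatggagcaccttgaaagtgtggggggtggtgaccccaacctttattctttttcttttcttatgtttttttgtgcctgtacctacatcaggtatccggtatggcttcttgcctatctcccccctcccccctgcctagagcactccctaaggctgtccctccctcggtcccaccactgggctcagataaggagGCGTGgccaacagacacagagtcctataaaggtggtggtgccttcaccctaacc

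Among the metabolic lists glycolysis had the most genes with an interval below 1. Of 20 counted, 12 had an interval below 1 and 0 above, with a median log2 ratio of -0.26 and a summed level that went from 13142 to 11127 CPM. Over all genes counted, 7.42% had an interval below 1. Intervals are narrow for well-read genes, and 30.9% of genes with 1000 reads or more had one off 1, on either side. Hk2, the inducible hexokinase that commits glucose to the pathway, had 586 and 325 reads, 1.61-fold lower (1.40 to 1.85). Further along, Pfkl was 1.44-fold lower (1.26 to 1.66), Tpi1 1.50-fold (1.37 to 1.64), Pgk1 1.25-fold (1.17 to 1.32, 24.7% unique), Eno1 1.39-fold (1.32 to 1.47, 18.1% unique) and Pkm2 1.15-fold (1.11 to 1.19). Ldha, which makes lactate, was 1.09-fold lower (1.05 to 1.13), and Slc16a3, the lactate exporter MCT4, had 48 and 18 reads, 2.38-fold lower (1.36 to 4.34).

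Not every step was lower. Gpi1 and Gapdh were level, at 1.06-fold (0.976 to 1.15) and 1.04-fold (0.905 to 1.19, 46.2% unique) on the higher side, and the glucose transporters Slc2a1 and Slc2a3 had log2 ratios of -0.09 and 0.14. Several of these enzymes have near-identical copies in the genome, so the genes with few unique reads are uncertain. With unique reads alone the list's median was -0.24. The controls differed by a median of -0.02 in this list, and the DMAT pair had a median of -0.12. Hk2 was at 236 CPM in the control for DMAT and 179 CPM with DMAT.

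Hypoxia genes overlap with glycolysis through the factor HIF-1. Bnip3, a mitophagy receptor induced by HIF-1, had 26 and 4 reads, 5.79-fold lower (2.01 to 22.8). Ankrd37, another target, had 28 and 10 reads, 2.50-fold lower (1.18 to 5.76), and Egln3, the oxygen-sensing hydroxylase, was 1.31-fold lower (1.07 to 1.62). Vegfa, Egln1 and Kdm3a, further targets, had log2 ratios of -0.13, 0.14 and -0.14. In all, 4 of 16 had an interval below 1 and 0 above, with a median of -0.15, and the controls differed by a median of -0.25. Bnip3 itself stood at 21.7 CPM in the control for DMAT and 11.3 CPM in that for CX4945.

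The sequence before the start of Bnip3 is shown because it had the lowest ratio of the hypoxia genes (RefSeq, GRCm38.p6, chr7:138909507-138909756, minus strand). Capitals mark the E-box CACGTG, with 1 match, and the core that HIF sites share with AhR sites, spelled out above for Cyp1a1, with 3 matches, both strands searched. That E-box occurs in 6.02% of all windows of this length.
Bnip3: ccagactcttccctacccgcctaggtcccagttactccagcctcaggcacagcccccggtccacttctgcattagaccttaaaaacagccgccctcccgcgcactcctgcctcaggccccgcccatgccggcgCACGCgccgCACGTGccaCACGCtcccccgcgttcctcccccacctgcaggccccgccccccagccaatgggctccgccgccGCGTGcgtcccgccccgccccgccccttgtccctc

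Sterol and lipid synthesis was lower as a group. Of 22 cholesterol genes counted, 9 had an interval below 1 and 0 above, 20 had a log2 ratio below 0, and the median was -0.32. Cyp51, a sterol demethylase, was 1.47-fold lower (1.28 to 1.70), Lss, which closes the sterol rings, 1.62-fold (1.29 to 2.04, 48.1% unique), Stard4, a sterol carrier, 1.52-fold (1.23 to 1.89) and Pmvk 1.56-fold (1.05 to 2.36). Srebf2, the master regulator of the pathway, was 1.16-fold lower (1.03 to 1.30). Their summed level went from 2264 to 1772 CPM.

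The experiments themselves differed in this group, and experiment and inhibitor cannot be told apart across the pairs. The control for CX4945 was already below the control for DMAT, by a median log2 of -0.41, and the DMAT library was above its own control, with a median of 0.28. Cyp51 stood at 346 CPM in the control for DMAT, 418 CPM with DMAT, 226 CPM in the control for CX4945 and 154 CPM with CX4945.

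In fatty acid synthesis 8 of 20 counted genes had an interval below 1 and 2 above, with a median of -0.26. Scd2, a stearoyl-CoA desaturase that makes monounsaturated fatty acids, was the best-read gene at least 2-fold lower, with 773 and 298 reads, 2.31-fold lower (2.02 to 2.65). Its relative Scd1 had 17 and 2 reads and lay just outside the limit of 20. Fads2, a polyunsaturated fatty acid desaturase, had 31 and 9 reads, 3.07-fold lower (1.43 to 7.33), and Abca1, the cholesterol exporter, 21 and 5, 3.74-fold lower (1.37 to 12.7). Srebf1 was 1.27-fold lower (1.07 to 1.51), Elovl5 1.31-fold (1.08 to 1.61), Acly 1.14-fold (1.04 to 1.25), and Fasn, the synthase itself, was level at 1.01-fold (0.944 to 1.08). Scd2 and Fads2 differed widely between the controls, with 905 CPM in the control for DMAT against 337 CPM in that for CX4945 for Scd2, and 58.0 against 13.5 CPM for Fads2. With DMAT they were at 1007 and 57.2 CPM.

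On the higher side of the list stood Agpat3, 1.26-fold (1.09 to 1.46), and Agpat2, with 9 and 38 reads, 4.74-fold (2.25 to 11.1). Only 17.0% of the Agpat2 reads were unique, so its level is uncertain. These enzymes acylate lysophosphatidic acid on the way to membrane lipids.

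**Figure D4:**
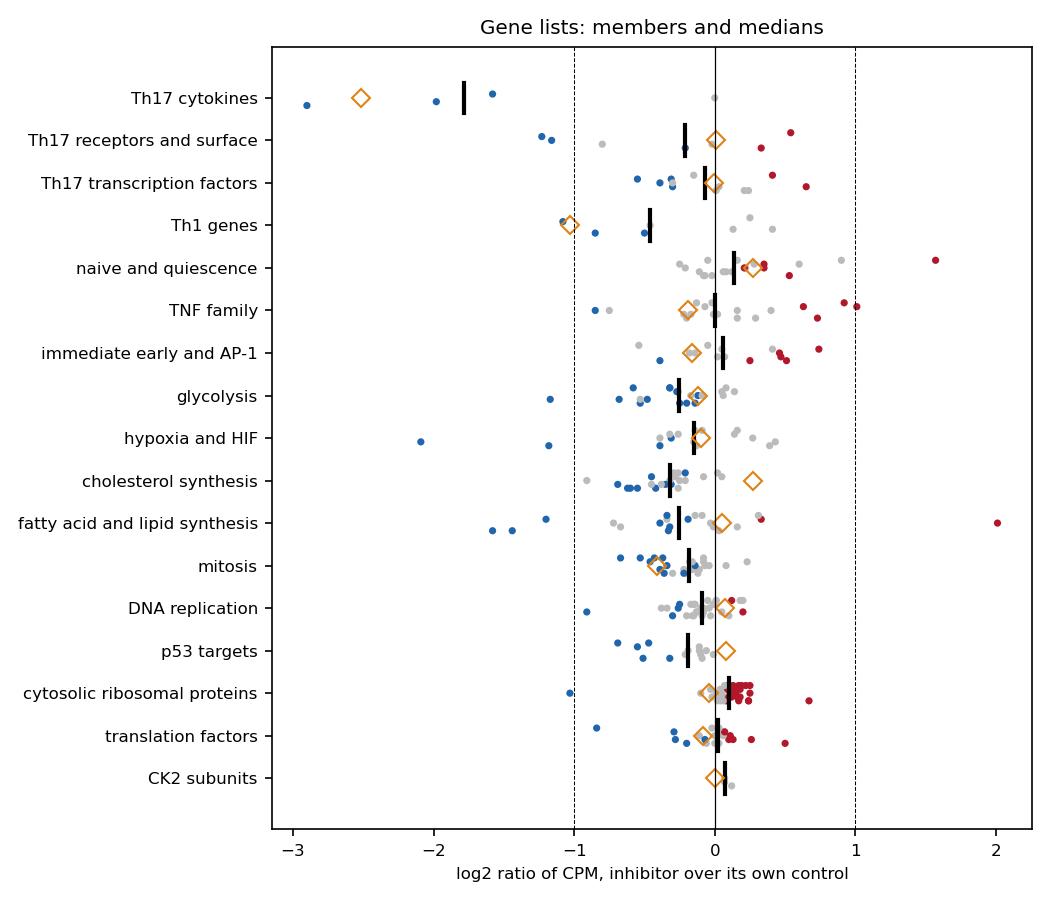
Each point is a counted gene of 1 of 17 lists, placed at its log2 ratio, CX4945 over its control; red points have a counting interval above 1, blue below 1 and grey one that holds 1. Black bars are list medians and open diamonds the medians of the same genes in the DMAT pair: cholesterol synthesis is at -0.32 and 0.28, glycolysis at -0.26 and -0.12, mitosis at -0.18 and -0.41.

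Genes of the PI3K, AKT, FOXO and mTOR pathway, which senses growth factors and nutrients, had a median log2 ratio of -0.02 over 21 counted, with 3 intervals below 1 and 1 above. The 1 above was Pik3cd, a PI3K catalytic subunit of lymphocytes, 1.30-fold higher (1.15 to 1.46). Eif4ebp1, the inhibitor of cap-dependent translation, was 1.84-fold lower (1.19 to 2.90), and Sesn2 and Ddit4, stress-induced brakes on mTOR, were 1.64-fold (1.17 to 2.31) and 1.48-fold (1.10 to 2.0) lower. Sesn2 is also a target of p53, and all 13 counted p53 targets had a log2 ratio below 0, 5 of them with an interval below 1. Ccng1 was 1.46-fold lower (1.28 to 1.68) and Cdkn1a, which encodes the cell cycle inhibitor p21, 1.39-fold (1.12 to 1.72). The median of the p53 targets was -0.19 here, 0.08 in the DMAT pair and -0.38 between the controls.

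Mitosis genes were lower by small amounts. Of 25 mitosis genes 10 had an interval below 1, 0 above, and 23 had a log2 ratio below 0, with a median of -0.18. Nusap1, a spindle protein, was 1.60-fold lower (1.23 to 2.09), the checkpoint kinase Bub1 1.46-fold (1.15 to 1.84), and the mitotic kinase Cdk1 1.29-fold (1.10 to 1.51). Mki67, the proliferation marker, was 1.06-fold lower with an interval that held 1 (0.983 to 1.14). The control for CX4945 was also below that for DMAT (median log2 difference -0.34), and the DMAT pair had a median of -0.41.

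Replication genes were closer to level, with 4 below 1 and 2 above of 31, and a median of -0.09. Gins2, a subunit of the replicative helicase, had 61 and 28 reads, 1.94-fold lower (1.22 to 3.15), but a log2 ratio of -0.28 against the control for DMAT. Both large and small subunits of ribonucleotide reductase, Rrm1 and Rrm2, were 1.19-fold lower (1.10 to 1.29, and 1.09 to 1.29). Mcm2 was 1.15-fold higher (1.05 to 1.25). Among cyclins, Ccne2 was 1.73-fold lower (1.28 to 2.36) and Ccnd2, which answers to growth factors in early G1, 1.33-fold higher (1.24 to 1.42). The 16 G1 cyclin and CDK inhibitor genes counted had a median of -0.03, with 1 interval above 1 and 4 below.

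The largest gain in reads was in 1 gene of the translation machinery, Eef1a1. As a list, the 22 translation factors counted had a median log2 ratio of 0.02, with 6 intervals above 1 and 5 below. Eef1a1, the elongation factor that brings aminoacyl-tRNA to the ribosome, went from 7824 to 11047 CPM, 1.41-fold higher (1.38 to 1.44, 47.7% unique). With unique reads its log2 ratio was 0.50, the same as with all reads. In the control for DMAT and the DMAT library Eef1a1 was at 7032 and 6555 CPM, so the CX4945 library alone was high. Pabpc1, the poly(A)-binding protein, was 1.19-fold higher (1.14 to 1.25), and the cap-binding factor Eif4e 1.23-fold lower (1.09 to 1.39). The 10 largest gains in CPM also held Hspa8, Lars2, Actb, Tpt1, Rps7, Rpl3, Ccnd2 and Ddx5, and of these Actb and Ddx5 had log2 ratios of 0.11 and 0.18, and Tpt1, Rps7 and Rpl3 of 0.24, 0.34 and 0.16, with 19.3%, 11.2% and 5.18% of reads unique. Of the 10 largest losses 4 were the glycolysis genes Eno1, Pkm2, Pgk1 and Ldha, and others were Npm1, a nucleolar chaperone (log2 -0.13, 46.2% unique), and Actg1 (-0.30, 0.863% unique).

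Cytosolic ribosomal protein genes were higher by small amounts. Of 37 counted, 33 had a log2 ratio above 0 and 22 had an interval above 1, with 1 below, and the median was 0.10. Only 12 of the 37 had at least 50% unique reads, and with unique reads the median of those 12 was 0.11. Rpl8, which has 100% unique reads, was 1.12-fold higher (1.08 to 1.18). Rps27 had the highest ratio, 1.59-fold (1.41 to 1.81), and Rpl13 the lowest, 2.07-fold lower (1.57 to 2.75), but just 0.483% and 10.4% of their reads were unique, as these genes have many processed copies. The median was -0.04 in the DMAT pair and -0.02 between the controls. Most of these genes hold over 1000 reads, where intervals are narrow and 30.9% of all genes had one off 1.

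Chaperone and proteasome genes followed no single direction. Hspa8, the constitutive cytosolic HSP70, went from 5577 to 7284 CPM, 1.31-fold higher (1.28 to 1.34, 13.7% unique), while the mitochondrial chaperonin Hspd1 was 1.20-fold lower (1.15 to 1.25, 40.3% unique). Psme1 and Psme2, the subunits of the interferon-inducible proteasome activator PA28, were 1.43-fold (1.25 to 1.65) and 1.57-fold (1.33 to 1.87, 32.7% unique) higher. Of 29 proteasome features, 6 were above 1 and 1 below. Xbp1, a transcription factor of the unfolded protein response, was 1.66-fold higher (1.25 to 2.22) and the ER chaperone Hspa5 1.16-fold (1.09 to 1.25), although Hspa5 had a log2 ratio of -0.05 against the control for DMAT.

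Oxidative stress genes gave 3 intervals below 1 and 0 above among 13. Hmox1, haem oxygenase, had 23 and 9 reads, 2.28-fold lower (1.02 to 5.59), and the metallothionein Mt1 26 and 11, 2.11-fold lower (1.01 to 4.72).

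Of 8 long noncoding RNAs and snoRNA host genes counted, 3 had an interval above 1 and 2 below. Malat1, a nuclear RNA of speckles, had 116 and 267 reads, 50.5 and 130 CPM, 2.58-fold higher (2.07 to 3.24), all of them unique. It was at 63.4 CPM in the control for DMAT and 41.8 CPM with DMAT. Neat1, the scaffold of paraspeckles, was 1.41-fold higher (1.16 to 1.70). The share of Malat1 gene reads that lay outside the annotated exons was 75.9% in the control and 74.0% with CX4945, so the gene reads outside exons were higher with the exon reads. Xist, which coats the inactive X chromosome, was 1.15-fold lower (1.09 to 1.21), with 2.58% of its reads unique.

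Lars2 and AY036118 were higher in both inhibitor libraries than in their controls. Lars2, the mitochondrial leucyl-tRNA synthetase gene, went from 131 to 447 CPM, 3.42-fold higher (3.0 to 3.91). Its exon-exon reads were 11 and 17, a ratio of 1.73 (0.766 to 4.10), an interval that held 1. Its other exon reads were 289 and 898, a ratio of 3.49 (3.05 to 3.99). These intervals overlap, but the gain in reads lay mainly in the other exon reads, so a gain in spliced Lars2 RNA is not shown. AY036118, a feature on chromosome 17, had 68 and 186 reads, 3.07-fold higher (2.31 to 4.11). Of these, 2 and 1 were exon-exon reads. What these reads come from was not tested. Of the other 16 mitochondrial synthetase genes none had an interval above 1, and Iars2 was the 1 below, at a log2 ratio of -0.33. In the DMAT pair Lars2 had 22 and 26 exon-exon reads and 216 and 609 other exon reads.

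Reads inside genes but outside their exons, here called intron reads, made up 12.41% of gene reads in the control (12.37 to 12.45) and 12.96% with CX4945 (12.92 to 13.01), and 12.63% and 12.86% in the DMAT pair. This measure was not used to choose the 2-fold genes, but the genes named below for their intron share were chosen by it. Of 8748 genes with at least 50 gene reads, 31 had a higher and 10 a lower intron share with CX4945 with 95% binomial intervals (exact) that did not overlap, and the median difference was 0.10 percentage points.

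The 5 largest gains are given here. Jarid2, a partner of the Polycomb complex PRC2, went from 42.3% of 319 gene reads in the control (36.8 to 47.9) to 74.9% of 764 with CX4945 (71.6 to 77.9). Gphn, the gephyrin gene, went from 55.3% to 83.7%, Arhgap21 from 41.4% to 76.2%, Itga9 from 69.2% to 95.8% and Spata5 from 14.8% to 43.0%. Itga9 rests on just 26 and 48 gene reads, and its intervals (48.2 to 85.7 and 85.7 to 99.5) only just lay apart. All 5 had a higher share with DMAT than in its control too, for example 26.1% and 58.1% for Jarid2. The uniqueness of these reads differed: Arhgap21 had 58 and 215 intron reads, of which 7 and 6 were unique, and Spata5 had 35 and 131, of which 15 and 20 were unique, while Jarid2 had 135 and 572, of which 57 and 178 were unique. The largest losses were in Gm10071, Ccdc163, Ercc8, Parp9 and Pex5, with Ercc8, a DNA repair gene, at 23.1% (14.3 to 34.0) and 4.94% (1.36 to 12.2).

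The enzyme that CX4945 binds was level in transcript. Csnk2a1 and Csnk2a2, the catalytic subunits, were 1.09-fold (0.976 to 1.21) and 1.05-fold (0.852 to 1.29) higher, and Csnk2b, the regulatory subunit, 1.05-fold (0.904 to 1.22). Kinases of the CLK, DYRK, PIM and HIPK families, which this class of inhibitor can also bind, had a median of -0.01, and 0 of 13 had an interval off 1. A transcript level says nothing of kinase activity.

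Many of the most extreme ratios rest on ambiguous reads. Of the 15 genes highest by the interval bound nearest 1, 5 had at least 50% unique reads: Lars2, AY036118, Malat1, Klf2 and Ecm1, an extracellular matrix gene with 56 and 118 reads, 2.36-fold higher (1.71 to 3.31) and a log2 difference of 1.08 between the controls. The others were Gm13563, Agpat2, Gm17284, Nrm, Gm10071, Gm20431, Jmjd8, Rpsa-ps10, Serf2 and Gm5428, with unique shares of 0 (Gm20431) to 28.1% (Jmjd8). Among the 15 lowest, 9 passed that limit: Il17f, Il17a, Il1rn, Il1r1, Scd2, Bnip3, the antiviral synthetase gene Oas3 with 24 and 3 reads (1.77 between the controls), the endothelial lipase gene Lipg with 23 and 4, and Xkr5 with 23 and 4. The other 6 were Il22, Gm5601, Nup62, Slc25a35, Gm20390 and Rpsa-ps12, from 0 (Gm20390) to 42.0% (Il22). Slc25a35 had a log2 ratio of 0.06 with unique reads, but with 1 such read in each library. Gm20390 had one of 0.35 against the control for DMAT. Over all genes counted, 90.2% had at least 50% unique reads, against 47 of the 79 higher (59.5%) and 54 of the 82 lower (65.9%).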

How the data were processed

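RNA sequencing libraries of 4 T cell cultures were analysed, 1 per group. The unit is the deposited count of total exon reads per feature, a whole number that the authors made without normalization and in which ambiguous reads are included. Per the submitters' processing notes the genome build was mm9 and the software CASAVA 1.8.2. The aligner, the annotation, the counting rule and the use of strand are not given in the sources used here, so overlapping and antisense genes may share reads. Counts were scaled by TMM over the pair (edgeR 4.0.16, R 4.3.3), and log2 ratios of CPM used a prior count of 2. Folds and their intervals are ratios of scaled counts without a prior. The 95% intervals are exact conditional Clopper-Pearson limits. Reads lack molecular identifiers, so those limits reflect read sampling alone. Each library held 2056635 to 2772525 exon reads. Chi-square per degree of freedom was 2.56 between CX4945 and its control, so they are distinct libraries. It was 3.24 between DMAT and its control and 3.05 between the untreated controls.

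No p-value was computed. Scripts were checked on simulated counts. Members, lists and the rule for naming genes were chosen with earlier results of these data known. Named were the 15 highest and 15 lowest genes by the interval bound nearest 1, the 10 largest CPM gains and losses, members of 62 lists that were 2-fold or had an interval off 1, up to 4 most-read members of a list, CK2 and T cell identity genes, and the 5 largest gains and losses of intron share. List members named as level, or with an interval that held 1, were picked for their role after their values were seen. Genes below 50% unique reads carry that share. A few genes that this rule names are not reported here. Of the list genes 971 of 983 were found. Alternatives were DESeq2 1.42.0 size factors, total scaling, other priors, filters and read kinds, and the other control. Promoter windows were matched by symbol for 79.9% of counted genes, 69.6% of those 2-fold higher and 72.0% of those lower, so a comparison of motif shares between sets is void and was left out.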

Additional observations from a re-analysis of the deposited data

How the results depend on the processing

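The counts of 2-fold genes depended on reads, filter and control. Of 79 genes higher, the count became 42 with unique exon reads, 141 with total gene reads, 497 with a limit of 1 read, 11 with a limit of 100 reads, 152 against the control for DMAT and, in an alternative chosen after seeing the data, 47 among features with at least 50% unique reads. For the 82 lower it became 127 with total gene reads, 348 with 1 read, 14 with 100 reads, 211 against the control for DMAT, 191 against both controls summed and 54 with at least 50% unique reads. Intervals above 1 went from 683 to 1323 against the control for DMAT and 1185 against both controls, and those below 1 from 694 to 1232 and 1088. The intron share with CX4945 was 12.96% of all gene reads and 9.39% of unique ones.

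Of the 191 genes named, DESeq2 size factors, total scaling and a prior count of 0.5 moved none outside its own interval. Other settings moved more, not counting the called genes listed below that turned direction. Against the control for DMAT 87 left their own interval, and against both controls summed 48. With unique reads 14 of 189 did, and with total gene reads 6. Some of those 14 had almost no unique reads, for example Gm13563 with 1 and Gm5601 with 2 over the pair. Of the named genes that were 2-fold or had an interval off 1, 6 turned direction against the control for DMAT. They were Il12rb1 (0.25, and 0.03 against both controls), Gm20390 (0.35), Il4ra (0.01), Myc (0.03), Hspa5 (-0.05) and Ercc8 (-0.17). With unique reads Slc25a35 turned direction (0.06), but on 1 unique read in each library, too few to show a direction. Of those whose interval held 1, 8 had the other sign against the control for DMAT, from Ahr (0.21 to -0.77) and Irf4 (0.01 to -0.29) to Pex5 (-0.05 to 0.25), and 5 with total gene reads, with Arhgap21 at 1.16 and Gphn at 1.07. Of 58 list medians, 9 moved against the control for DMAT. The cause was not tested. With 1 library per arm, no library could be left out, and experiment and inhibitor cannot be told apart where the controls differ. No paired analysis was possible because no result comes from a test. Few reads limit the rest: for the 1218 genes with 20 to 49 reads, the upper limit of the interval was 4.69 times the lower in the median.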

Other observations

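Further gene lists were read in the same way. Tfh genes had a median log2 ratio of -0.17 over 8 counted, with 3 intervals below 1, in Btla, the cell surface protein gene Cd200 (log2 -0.32) and the signalling adaptor Sh2d1a (-0.51). Treg genes had a median of 0.07 over 7 counted. Il2ra was the member with an interval off 1, and Foxp3, the master regulator of regulatory T cells, had 2 reads without and 3 with the inhibitor. Of 3 Th2 genes counted, Il4ra, a chain of the IL-4 receptor, had an interval below 1 (log2 -0.30). Of the BCL2 family and death genes, Bcl2, which blocks apoptosis, had a log2 ratio of 0.28 and Xiap, a caspase inhibitor, -0.46, and 2 of 16 lay above and 2 below 1. Axin2, a feedback target of Wnt signalling, had 29 and 49 reads (log2 0.88).

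Large gene groups of basic metabolism had medians near 0. Nuclear oxidative phosphorylation genes had a median of -0.00 over 31, with 1 interval above 1 and 4 below, and their summed level was 0.974 times that of the control (0.953 to 0.996). Mitochondrial ribosomal proteins had a median of -0.06 over 24, with 1 above and 2 below. Cytosolic aminoacyl-tRNA synthetases had a median of 0.06, and 0 of 20 had an interval off 1. SR and hnRNP splicing factors had a median of -0.01 over 25 features, with 4 above and 4 below 1. Of 29 MYC and ribosome biogenesis genes, 2 lay above and 6 below 1, and the summed level was 0.969 times that of the control (0.955 to 0.982), with Ubtf, a factor of RNA polymerase I, at log2 0.42 and Myc at -0.19.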
